A study of Mus musculus with 8 samples.

Results

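The 9 genes described here, Thy1, Pdgfra, Pdgfrb, Bgn, Dcn, Lum, Sparc, Postn and Nrep, are used as markers of stromal cells and fibroblasts, the cells that build and hold connective tissue. They were chosen by gene symbol, and the array carried 11 probes for them among 25697 probes and 16593 named genes in all. A gene was tested where a probe of it was detected on at least 2 arrays, detection meaning a detection p-value below 0.05. That left 7 of the 9 genes among 9915 genes tested, with Lum and Postn below this limit. RNA came from E14TG2a, a mouse embryonic stem (ES) cell line, and was hybridised to 8 Illumina BeadChip arrays, 2 for each of 4 groups, in a study of how such cells differentiate. The ES group was undifferentiated, kept in serum-containing GMEM with medium conditioned by LIF-producing cells. The IDE2 group spent 11 days in differentiation medium (Iscoves and Ham F12 with N2, B27, ascorbic acid, 1-thioglycerol and 1% serum) with IDE2, a small molecule inducer of definitive endoderm, at 1 uM throughout. The IDE2+FGF2 and IDE2+FGF10 groups had IDE2 at 1 uM for 6 days, then 5 days in which fibroblast growth factor 2 at 500 ng/ml or fibroblast growth factor 10 at 25 ng/ml took its place. Both FGF groups therefore differ from the IDE2 group by the growth factor and by 5 days without IDE2, and from each other by the factor and its dose. No group of 11 days without IDE2 was analysed here, so IDE2 cannot be told apart from time and medium in any comparison with ES. All groups come from the same cell line.

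Fibroblasts are known for secreting collagen and the proteins that organise it. Biglycan, decorin and lumican (Bgn, Dcn, Lum) are small leucine-rich proteoglycans, whose protein cores bind collagen fibrils, and biglycan and decorin also bind the growth factor TGF-beta. SPARC and periostin (Sparc, Postn) are matricellular proteins, secreted proteins that adjust how cells attach to the matrix. The receptor tyrosine kinases of platelet-derived growth factor (PDGF), encoded by Pdgfra and Pdgfrb, drive growth and migration of mesenchyme, Pdgfra mainly in fibroblasts and their precursors and Pdgfrb mainly in pericytes and fibroblasts. Thy1 (CD90) is a lipid-anchored surface glycoprotein of fibroblasts, of mouse T cells and of neurons, and Nrep (P311) encodes a small intracellular protein first described in neurons and also found in myofibroblasts. None of these genes is restricted to stroma: in the mouse embryo Pdgfra also marks primitive endoderm, and Sparc is abundant in parietal endoderm.

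Each array detected 11609 to 13422 probes (45.2 to 52.2%). Probes rested on 38 to 40 beads at the median, and the median signal was 117 to 175 depending on the array. Levels are log2 normalized intensities, and the background level, the lowest level of any detected probe, lay between 5.36 and 5.79 on the 8 arrays. Replicates of ES and of IDE2+FGF10 differed less (pooled SD over genes 0.247 and 0.241) than replicates of IDE2 and of IDE2+FGF2 (0.496 and 0.454), and all groups shared the estimate of spread used in the tests. Since no label states if replicate arrays were separate cultures, p-values here cover spread among these samples only, and that spread can be technical. Precision is limited by there being 2 arrays to a group. In bulk RNA a lower level can mean fewer cells of a type or less RNA per cell, and these cannot be told apart.

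As markers, the 9 genes did not behave as a set. Thy1, Pdgfra, Sparc and Nrep were detected on all 8 arrays, undifferentiated cells included, whereas Postn was detected on 0 and Lum on 1. Fap and S100a4, also used to mark fibroblasts, were detected on 0 arrays each. They do not stand for their list of 20 other stromal markers, of which 18 had a probe and 14 could be tested. Vim and Mcam of that list were detected on all 8 arrays. The 9 genes are therefore treated below by the role of their proteins, and no cell type is read from them.

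Promoter sequences, as a reference for the members that moved, come from RefSeq on GRCm38.p6, the build of that table, where 4 of the 9 genes had an entry (Pdgfra, Bgn, Sparc and Postn). Shown are the 250 bases before the start of 3 members that were higher in differentiated cells, in the direction of the gene. They lie at chr5:75152001-75152250 on the plus strand for Pdgfra, chrX:73483351-73483600 on the plus strand for Bgn and chr11:55420081-55420330 on the minus strand for Sparc. Capitals mark every match, on either strand, to 5 motifs: the TATA box spelled TATAAA, the GC box spelled GGGCGG, the SMAD element spelled CAGACA, the E-box spelled CANNTG, and CCAAT.
Pdgfra: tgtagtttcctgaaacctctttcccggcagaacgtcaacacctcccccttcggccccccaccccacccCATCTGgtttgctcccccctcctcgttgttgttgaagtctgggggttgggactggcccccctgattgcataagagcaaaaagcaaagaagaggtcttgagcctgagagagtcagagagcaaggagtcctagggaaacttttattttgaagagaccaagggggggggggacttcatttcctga
Bgn: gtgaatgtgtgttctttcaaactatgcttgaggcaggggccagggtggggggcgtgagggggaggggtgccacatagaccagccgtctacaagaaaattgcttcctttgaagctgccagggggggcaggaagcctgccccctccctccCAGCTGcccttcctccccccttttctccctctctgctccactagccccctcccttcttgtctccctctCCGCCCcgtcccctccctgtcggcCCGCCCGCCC
Sparc: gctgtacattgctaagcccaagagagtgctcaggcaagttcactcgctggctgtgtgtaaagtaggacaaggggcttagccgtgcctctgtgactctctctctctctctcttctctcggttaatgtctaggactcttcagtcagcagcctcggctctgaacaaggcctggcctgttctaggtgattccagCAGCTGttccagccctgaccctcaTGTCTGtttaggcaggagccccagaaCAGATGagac
The Bgn stretch held 3 GGGCGG matches, all read from the reverse strand and 2 of them overlapping, and 1 CANNTG. In Sparc there were 2 CANNTG and 1 CAGACA, the latter on the reverse strand. Pdgfra had 1 CANNTG. Over the same 250 bases of all 32851 promoter entries, 12.4% held TATAAA, 32.7% GGGCGG, 17.1% CAGACA, 66.2% CANNTG and 33.8% CCAAT. The 3 stretches thus share only the E-box, which most promoters hold, and a match describes letters and not a bound site.

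Thy1 was highest in undifferentiated cells. ES arrays measured 9.79 and 9.95, IDE2 arrays 6.37 and 5.37, IDE2+FGF2 arrays 7.65 and 8.78, and IDE2+FGF10 arrays 6.27 and 6.43. Both ES arrays were above all others, both IDE2+FGF2 arrays came next, and the IDE2 and IDE2+FGF10 arrays overlapped near the bottom. The probe was detected everywhere, but on IDE2 replicate 2 its level was that of the background (5.36). The replicates of IDE2+FGF2 lay 1.13 apart and those of IDE2 1.00 apart, against 0.16 and 0.15 in ES and IDE2+FGF10.

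Pdgfra, the PDGF receptor that binds both A and B chains, had the opposite order. ES arrays measured 6.01 and 6.23, close to their background levels of 5.64 and 5.63, and IDE2 arrays 8.70 and 9.39. The FGF groups lay in between, at 7.81 and 7.37 in IDE2+FGF2 and at 7.56 and 7.55 in IDE2+FGF10. The 3 levels did not overlap: ES lowest, the FGF groups together in the middle, IDE2 highest.

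Pdgfrb, which binds the B chain, stayed near background. It was detected on IDE2 replicate 1 (5.77), IDE2+FGF2 replicate 2 (7.16) and IDE2+FGF10 replicate 2 (5.88) and on no other array. The undetected arrays lay between 4.96 and 5.40, the ES arrays at 5.15 and 5.11. Within IDE2+FGF2 the replicates were 1.76 apart, so the highest value of this gene rests on 1 array.

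**Figure D1:**
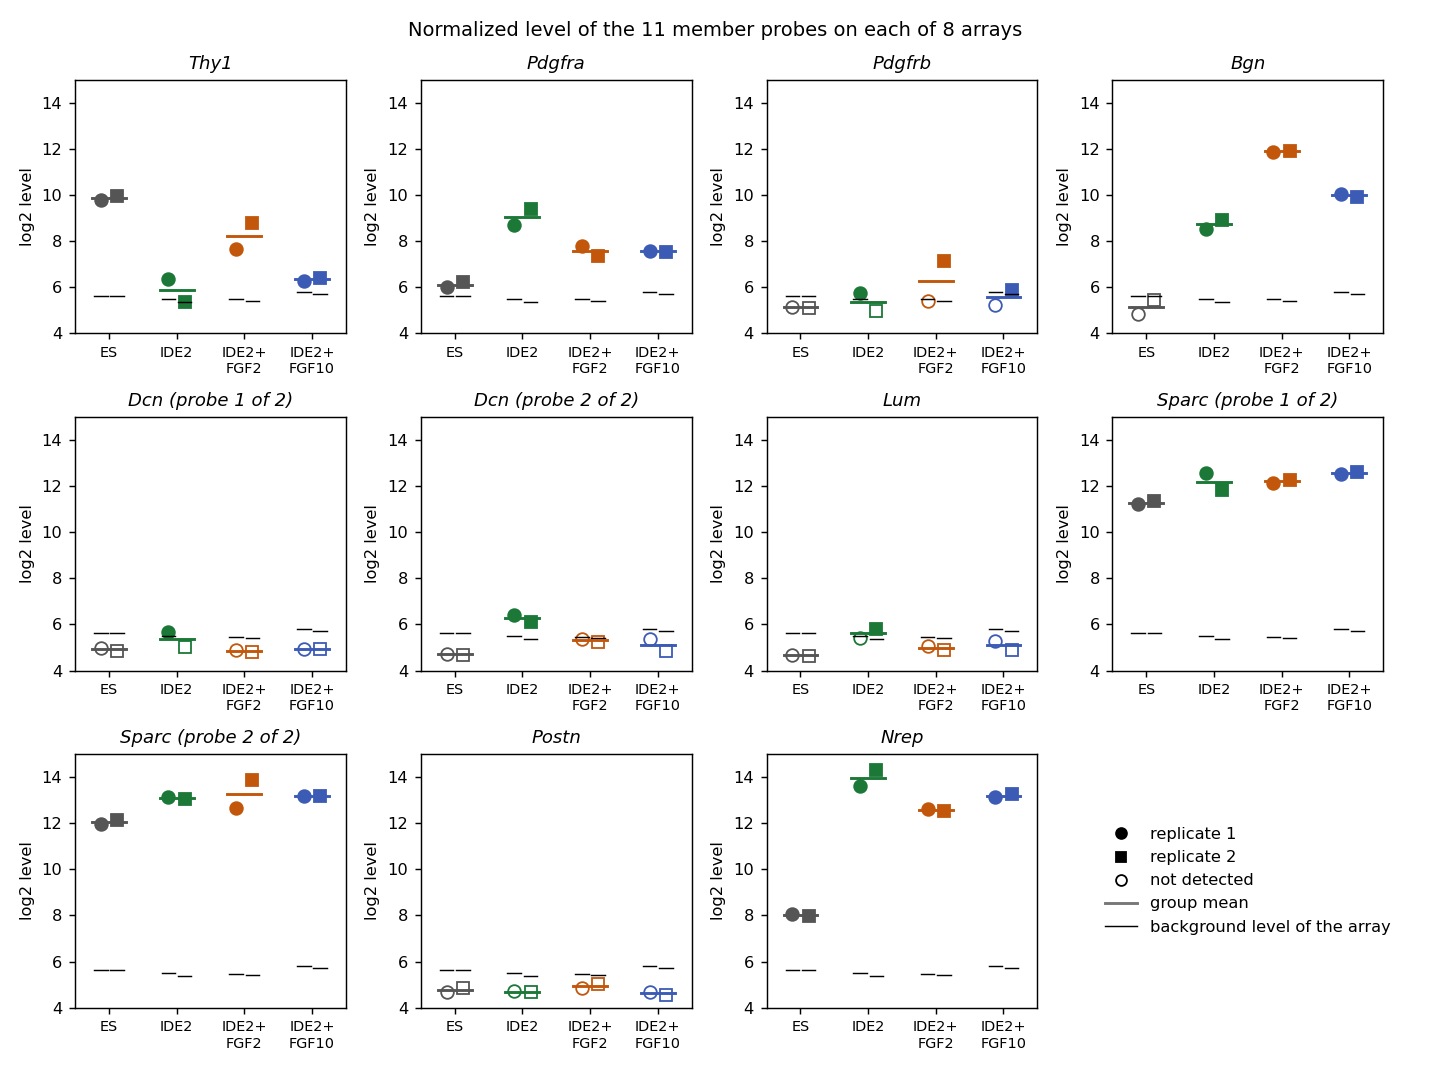
Log2 normalized level (vertical axis) of each of the 11 member probes on each of 8 arrays by group. Circles are replicate 1 and squares replicate 2, open symbols are arrays where the probe was not detected, coloured lines are group means and black dashes the background level of each array. For Dcn and Sparc the second panel is the probe used in the tests. Thy1 is highest on the ES arrays (9.79 and 9.95), Bgn on the IDE2+FGF2 arrays (11.87 and 11.92) and Nrep on the IDE2 arrays (13.60 and 14.33), while Postn lies below background on all 8.

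Bgn separated all 4 groups. It was not detected on either ES array, where it read 4.85 and 5.44. The IDE2 arrays measured 8.54 and 8.94, the IDE2+FGF10 arrays 10.05 and 9.92, and the IDE2+FGF2 arrays 11.87 and 11.92. Replicates lay 0.05 to 0.59 apart, so the distance between any 2 groups exceeded the distance between replicates.

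Decorin was seen in IDE2 alone, and weakly. Its brighter probe was detected on both IDE2 arrays, at 6.40 and 6.12, and on none of the others, which read 4.72 and 4.68 in ES, 5.39 and 5.26 in IDE2+FGF2, and 5.39 and 4.83 in IDE2+FGF10. The other Dcn probe was detected on IDE2 replicate 1 only (5.68) and on too few arrays to be tested. Lumican, whose gene follows Dcn directly among protein-coding genes in the RefSeq order of chromosome 10, was detected on IDE2 replicate 2 only (5.80), with 5.42 on IDE2 replicate 1 and 4.63 to 5.30 elsewhere. Of 12 other small leucine-rich proteoglycans, 11 had a probe and 0 could be tested: Ogn, which encodes osteoglycin, was detected on 1 array and the other 10, Fmod, Omd, Prelp, Kera, Aspn, Epyc, Chad, Podn, Podnl1 and Ecm2, on none. Bgn was thus the only proteoglycan of this family detected in more than 1 group, apart from any without a probe.

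Sparc was bright everywhere, undifferentiated cells included. The probe used measured 11.98 and 12.14 in ES, 13.16 and 13.03 in IDE2, 12.66 and 13.87 after FGF2 and 13.19 and 13.17 after FGF10. All 6 differentiated arrays lay above both ES arrays, and the differentiated groups overlapped or nearly so. The 2 probes of Sparc disagreed on IDE2+FGF2, where replicates were 1.21 apart by this probe and 0.14 apart by the other (12.13 and 12.27). In IDE2 it was the other probe that split the replicates, at 12.55 and 11.85. That other probe also had both ES arrays lowest, at 11.20 and 11.34, and IDE2+FGF10 at 12.51 and 12.60. Periostin, a matricellular protein that TGF-beta induces in fibroblasts, read 4.57 to 5.03 on the 8 arrays and was detected on none.

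Nrep moved most between undifferentiated and differentiated cells of the members measured in both. It was already detected in ES, at 8.05 and 7.98. In IDE2 it reached 13.60 and 14.33, in IDE2+FGF2 12.62 and 12.55, and in IDE2+FGF10 13.12 and 13.28. The groups did not overlap, with IDE2 highest, IDE2+FGF10 next, IDE2+FGF2 below it and ES far lowest.

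The comparison of IDE2 with ES asked how cells differed after 11 days of IDE2 differentiation. Nrep rose 61.5-fold (5.94 ± 0.30 on the log2 scale, ± being the SE and n = 2 in each group, limma adjusted p = 1.2e-06) and Pdgfra 7.58-fold (2.92 ± 0.31, adjusted p = 5.3e-05). Bgn rose at least 8.61-fold and Dcn at least 1.54-fold (log2 changes 3.59 ± 0.30 and 1.56 ± 0.29, adjusted p = 1.1e-05 and 0.0016). "At least" marks a group in which the probe was not detected on any array, whose background level then stands in for it in the fold but not in the log2 change. Sparc rose 2.05-fold (1.04 ± 0.37, adjusted p = 0.041). Thy1 fell, with a log2 change of -4.00 ± 0.42 (adjusted p = 4.4e-05), and Pdgfrb did not pass (0.23 ± 0.51, adjusted p = 0.73). In all, 5 of the 7 tested members rose and 1 fell. Among all genes tested 45.3% changed, 23.1% rising and 22.2% falling, and the median log2 change was 1.56 over the tested members and -0.01 over all genes. The members had to be detected on 2 arrays to be tested, so a gene seen only in IDE2, such as Dcn, passed that limit through the group in which it was high. The Sparc call ended under 9 of 20 alternatives, with adjusted p up to 0.174 (without ES replicate 1), and the calls of the other 5 members held under all alternatives run for them. Their sizes did not: with no background correction the fitted change was 3.97-fold for Bgn, 3.61-fold for Pdgfra, 1.62-fold for Dcn and -2.65 on the log2 scale for Thy1. The second deposited table gave 4.07-fold, 3.68-fold, 1.63-fold and -2.69 in that order, and an offset of 50 gave 6.62-fold for Bgn, 1.84-fold for Dcn and -3.37 for Thy1. A fold given as "at least", here and below, is therefore a bound only under the background correction used.

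After FGF2, the order of the changes against ES was different, with Bgn in the lead. Bgn rose at least 76.7-fold over ES (log2 change 6.75 ± 0.30, n = 2, limma adjusted p = 8.4e-07) and Nrep 23.6-fold (4.56 ± 0.30, adjusted p = 5.0e-06). Pdgfra rose 2.76-fold (1.47 ± 0.31, adjusted p = 0.0048) and Sparc 2.31-fold (1.21 ± 0.37, adjusted p = 0.027). Thy1 fell 3.15-fold (-1.66 ± 0.42, adjusted p = 0.011). Pdgfrb was at least 1.57-fold higher without passing (1.15 ± 0.51, adjusted p = 0.107), and Dcn was not detected in either group. So 4 members rose and 1 fell of 7 tested, where 34.5% of all genes changed (17.8% higher, 16.8% lower). The median was 1.21 over tested members and -0.01 over all genes. Leaving out ES replicate 1 ended the Thy1, Pdgfra and Sparc calls (adjusted p = 0.056, 0.056 and 0.144). Thy1 was also lost without ES replicate 2 (0.073) or IDE2+FGF2 replicate 1 (0.101), Sparc without ES replicate 2 (0.098) or IDE2+FGF2 replicate 2 (0.103, log2 change 0.61) and under 2 other settings, and Pdgfrb passed without IDE2+FGF2 replicate 1 (log2 change 2.03, adjusted p = 0.015). Without IDE2+FGF2 replicate 2, the 1 array of that group that detected it, Pdgfrb changed by 0.26 (1.20-fold, adjusted p = 0.67), below the bound above. Sparc changed by 1.81 without IDE2+FGF2 replicate 1, and Thy1 by -2.26 without IDE2 replicate 2 and IDE2+FGF2 replicate 2 together. The fitted Bgn change was 29.5-fold with no background correction, 30.0-fold with the second deposited table and 55.1-fold with an offset of 50, and that of Pdgfra was 1.70-fold and 1.72-fold in the first 2 of these.

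After FGF10, Nrep rose 36.2-fold over ES (log2 change 5.18 ± 0.30, n = 2, limma adjusted p = 2.3e-06) and Bgn at least 20.5-fold (4.84 ± 0.30, adjusted p = 2.6e-06). Pdgfra rose 2.70-fold (1.43 ± 0.31, adjusted p = 0.0038) and Sparc 2.18-fold (1.12 ± 0.37, adjusted p = 0.029). Thy1 fell by 3.52 ± 0.42 on the log2 scale (adjusted p = 9.1e-05). Neither Pdgfrb (0.43 ± 0.51, adjusted p = 0.52) nor Dcn, undetected in both groups, passed. With 4 members higher and 1 lower of 7 tested, 45.1% of all genes changed (22.2% higher, 22.8% lower), and the medians were 1.12 and -0.01. Sparc lost its call under 6 of 20 alternatives, the highest adjusted p being 0.143 without ES replicate 1. With no background correction the fitted changes were 8.33-fold for Bgn, 1.67-fold for Pdgfra and -2.47 on the log2 scale for Thy1. They were 8.57-fold, 1.69-fold and -2.50 with the second deposited table, and with an offset of 50 the log2 change of Bgn was 3.91. By its other probe, tested among all kept probes, Sparc was 1.28 ± 0.31 higher on the log2 scale in IDE2+FGF10 (adjusted p = 0.0061), 0.93 ± 0.31 in IDE2+FGF2 (0.038) and 0.92 ± 0.31 in IDE2 (0.030). These 3 comparisons share the ES arrays, so their directions are not independent of each other.

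**Figure D2:**
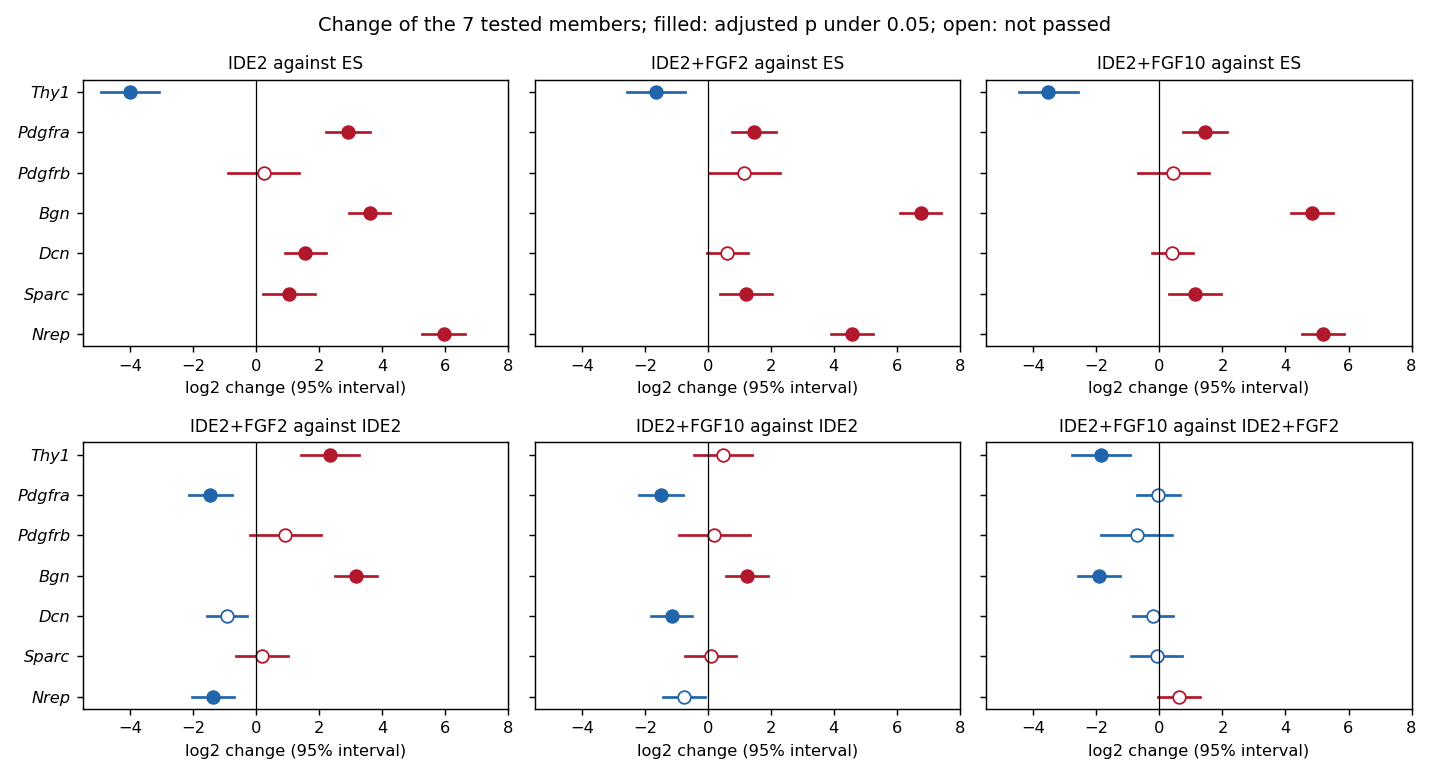
Log2 change (horizontal axis) of the 7 tested members in each of 6 comparisons, with 95% intervals from the model. Red is higher and blue lower in the group named first, and filled points passed an adjusted p of 0.05. Against ES the members spread from Thy1 at -4.00 to Bgn at 6.75, and among differentiated groups Bgn passed in all 3 panels.

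FGF2 in place of continued IDE2 split the members. Bgn rose 8.91-fold over IDE2 (log2 change 3.16 ± 0.30, n = 2, limma adjusted p = 0.00033) and Thy1 5.08-fold (2.35 ± 0.42, adjusted p = 0.011). Pdgfra fell 2.74-fold (-1.46 ± 0.31, adjusted p = 0.024) and Nrep 2.60-fold (-1.38 ± 0.30, adjusted p = 0.025). Dcn, detected in IDE2 but not in IDE2+FGF2, was at least 1.75-fold lower without passing (-0.94 ± 0.29, adjusted p = 0.074), and Sparc (0.17 ± 0.37) and Pdgfrb (0.92 ± 0.51) did not pass either (adjusted p = 0.80 and 0.28). Of 7 tested members 2 rose and 2 fell, while 7.5% of all genes changed (3.7% higher, 3.8% lower). The medians were 0.17 and 0.02. The Bgn call held under all 20 alternatives. Thy1 was lost with array weights (adjusted p = 0.083), without IDE2 replicate 2 (0.098) and without IDE2+FGF2 replicate 2 (0.112, log2 change 1.74), and without both of these arrays its change was 1.26 and passed (0.043). Thy1 rose 2.47-fold with no background correction and 2.51-fold with the second deposited table (adjusted p = 0.038 and 0.037). Pdgfra was lost under 8 and Nrep under 9 of 20 alternatives, with adjusted p of at most 0.178 and 0.183, the highest in each case with array weights. Pdgfrb passed without IDE2+FGF2 replicate 1 (1.80, adjusted p = 0.038), whereas without IDE2+FGF2 replicate 2 its change was 0.04 (1.03-fold, adjusted p = 0.97).

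FGF10 in place of continued IDE2 raised Bgn less, 2.38-fold (log2 change 1.25 ± 0.30, n = 2, limma adjusted p = 0.024). Pdgfra fell 2.80-fold (-1.49 ± 0.31, adjusted p = 0.016), and Dcn fell at least 1.42-fold (-1.15 ± 0.29, adjusted p = 0.028). Dcn, detected in IDE2 alone, could be tested only through the group in which it was high. Nrep was lower by 0.76 ± 0.30 on the log2 scale and missed the threshold (adjusted p = 0.112). For Thy1 the difference of 0.48 ± 0.42 had a 95% interval from -0.45 to 1.40 (adjusted p = 0.46), and Sparc (0.09 ± 0.37) and Pdgfrb (0.20 ± 0.51) did not pass. Thus 1 member rose and 2 fell of 7 tested, against 13.9% of all genes changed (4.13% higher, 9.76% lower), with medians of 0.09 and 0.06. None of the 3 calls was stable: without IDE2+FGF10 replicate 1, without IDE2+FGF10 replicate 2 and with only these 2 groups in the fit all 3 were lost, the adjusted p reaching 0.167 for Bgn, 0.116 for Pdgfra and 0.245 for Dcn. Bgn and Pdgfra were also lost without IDE2 replicate 2 (0.060 and 0.079), Bgn and Dcn with array weights (0.070 and 0.088), Bgn with median scaling (0.095), and Dcn under 5 further settings, its change being -0.46 with no background correction and -0.47 with the second deposited table. Nrep passed without IDE2 replicate 1 (-1.11, adjusted p = 0.013).

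Set directly against FGF2, FGF10 at its lower dose left Bgn 3.75-fold lower (log2 change -1.91 ± 0.30, n = 2, limma adjusted p = 0.0058) and Thy1 3.65-fold lower (-1.87 ± 0.42, adjusted p = 0.026). No member rose. Pdgfra did not pass (-0.03 ± 0.31, 95% interval -0.73 to 0.66, adjusted p = 0.96). Nrep was 0.62 ± 0.30 higher without passing (95% interval -0.05 to 1.29, adjusted p = 0.23), and Sparc differed by -0.09 ± 0.37 (interval -0.90 to 0.73, adjusted p = 0.91). Pdgfrb differed by -0.72 ± 0.51 (adjusted p = 0.41), and Dcn was not detected in either group. The 2 falls among 7 tested members stand beside 7.31% of all genes changed (2.6% higher, 4.71% lower) and medians of -0.21 and 0.00. Bgn lost its call without IDE2+FGF10 replicate 1, IDE2+FGF2 replicate 2 or IDE2+FGF10 replicate 2 (adjusted p = 0.060, 0.052 and 0.086). Thy1 lost it without the same arrays (0.174, 0.151 and 0.138) and under 4 further settings with adjusted p of 0.050 to 0.064, its change being -1.29 without IDE2+FGF2 replicate 2, -1.12 with no background correction and -1.14 with the second deposited table.

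**Figure D3:**
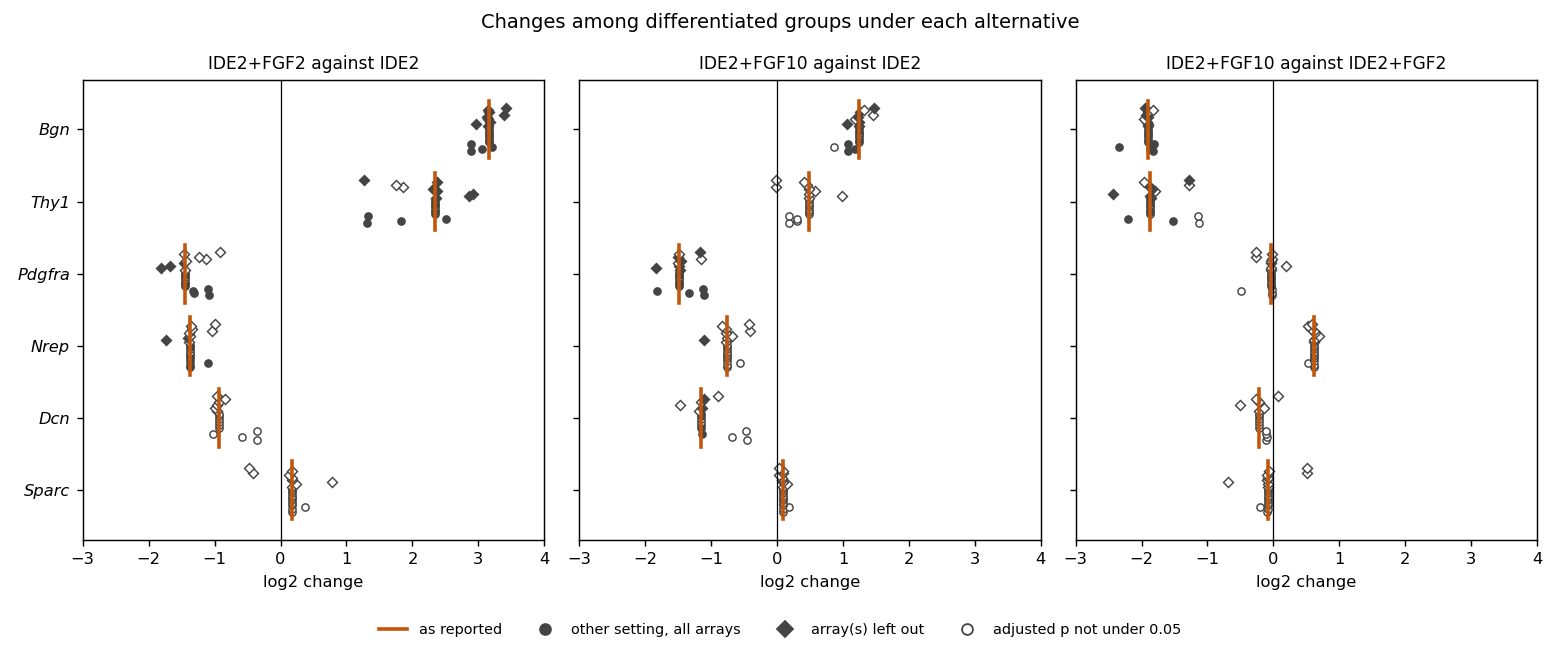
Log2 change (horizontal axis) of 6 members in the 3 comparisons among differentiated groups, as reported (orange line) and under each alternative (circles, all arrays; diamonds, arrays left out). Open symbols did not pass an adjusted p of 0.05. Bgn stays between 2.88 and 3.41 for IDE2+FGF2 against IDE2 and passes every time, whereas for IDE2+FGF10 against IDE2 its changes of 0.87 to 1.47 pass in 14 of 20.

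Of the PDGF ligands and related receptors beside the 2 members, 8 entries gave 6 genes with a probe and 4 tested. Pdgfb, the B chain that binds both receptors, was highest after FGF2: over ES it rose 12.1-fold there (adjusted p = 5.9e-05), against 3.49-fold with FGF10 (0.0025) and 2.53-fold with IDE2 alone (0.013). In IDE2+FGF2 it was also 4.80-fold higher than in IDE2 (0.0070), and IDE2+FGF10 was 3.48-fold below IDE2+FGF2 (0.018). Pdgfc, a ligand of the alpha receptor, fell in all 3 groups against ES, with folds of 2.27 (IDE2), 2.42 (IDE2+FGF2) and 3.57 (IDE2+FGF10). Pdgfa, the A chain, fell 2.04-fold in IDE2 and passed in no other comparison. Pdgfrl, a receptor-like gene, rose 2.03-fold in IDE2+FGF2 and 2.68-fold in IDE2+FGF10 against ES. The list thus had 1 rise and 2 falls in IDE2, 2 and 1 in each FGF group against ES, and 1 rise, 0 calls and 1 fall in the comparisons among differentiated groups. Of all genes, 23.1% rose and 22.2% fell in IDE2, 17.8% and 16.8% in IDE2+FGF2 and 22.2% and 22.8% in IDE2+FGF10 against ES. Among differentiated groups, 3.7% rose in IDE2+FGF2 against IDE2, 13.9% changed in IDE2+FGF10 against IDE2, and 4.71% fell in IDE2+FGF10 against IDE2+FGF2. Pdgfd and Flt3 were detected on 0 arrays.

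Among 15 relatives of Sparc and other matricellular genes, 10 were tested, and against ES 6 rose in IDE2, 7 after FGF2 and 7 after FGF10, with no falls, where 23.1%, 17.8% and 22.2% of all genes rose. The list medians were 1.52, 2.08 and 1.54, against -0.01 over all genes in each. Tnc, which encodes tenascin C, rose at least 23.5-fold over ES after FGF2 (adjusted p = 4.6e-06), and after FGF10 it stood 7.19-fold under that (0.0011). Tgfbi, a relative of periostin that TGF-beta induces, rose 13.8-fold over ES and 3.82-fold over IDE2 with FGF2, and was 3.23-fold lower with FGF10 than with FGF2. Thbs1 and Thbs2, the thrombospondins, rose over ES by at least 7.28-fold (Thbs1) and at least 6.55-fold (Thbs2) when IDE2 was kept. Ccn1, another secreted matricellular gene, exceeded its IDE2 level 4.52-fold after FGF2 and 2.88-fold after FGF10. Among differentiated groups the list had 3 rises in IDE2+FGF2 against IDE2, 1 rise in IDE2+FGF10 against IDE2 and 2 falls in IDE2+FGF10 against IDE2+FGF2, where 3.7% and 4.13% of all genes rose and 4.71% fell.

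Fibrillar collagens, which the proteoglycans bind, and the enzymes that process them rose against ES in 10 of 14 tested genes in IDE2, 9 after FGF2 and 10 after FGF10, with 1 fall in each, that of Pcolce, a collagen processing enhancer (folds of 14.5, 7.28 and 11.8 in the same order). Bmp1, the protease that trims fibrillar procollagen, rose with folds of 21.4, 11.3 and 19.2 in that order. Col3a1, like Bgn, passed upward in IDE2+FGF2 against both ES (at least 9.33-fold) and IDE2 (2.69-fold), and its level in IDE2+FGF10 was 3.42-fold lower. It was the only gene of this list to pass in IDE2+FGF2 against IDE2. Loxl2, a collagen crosslinking enzyme, was the only one in IDE2+FGF10 against IDE2 (3.03-fold higher). In these comparisons 3.7% and 4.13% of all genes rose, in that order. Of all genes 23.1%, 17.8% and 22.2% rose and 22.2%, 16.8% and 22.8% fell against ES. The list medians against ES were 1.73, 1.79 and 1.97, with -0.01 over all genes.

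Of the contractile genes of myofibroblasts, 5 of 6 tested rose in IDE2 and 6 of 6 in each FGF group against ES, beside 23.1% of all genes in IDE2, 17.8% after FGF2 and 22.2% after FGF10. Acta2, smooth muscle actin, rose 209-fold (IDE2), 191-fold (IDE2+FGF2) and 156-fold (IDE2+FGF10) over ES, and did not pass in any comparison among these groups. Cnn2 alone did, 2.26-fold higher in IDE2+FGF10 than in IDE2, where 4.13% of all genes rose. Of 9 tested TGF-beta genes, 6 rose and 2 fell in IDE2, 6 and 1 after FGF2, and 5 and 2 after FGF10, against ES. Of all genes 23.1%, 17.8% and 22.2% rose and 22.2%, 16.8% and 22.8% fell in that order. In IDE2, Ltbp1, a latent TGF-beta binding protein, rose at least 5.41-fold, while Ltbp4, another one, fell 24.1-fold and the ligand Tgfb1 fell at least 7.63-fold. The receptor Tgfbr2 rose 6.11-fold over ES after FGF2, and its level after FGF10 was 2.10-fold below that. The receptor Tgfbr1 and the ligand Tgfb2 were 3.42-fold and 2.41-fold lower in IDE2+FGF10 than in IDE2.

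**Figure D4:**
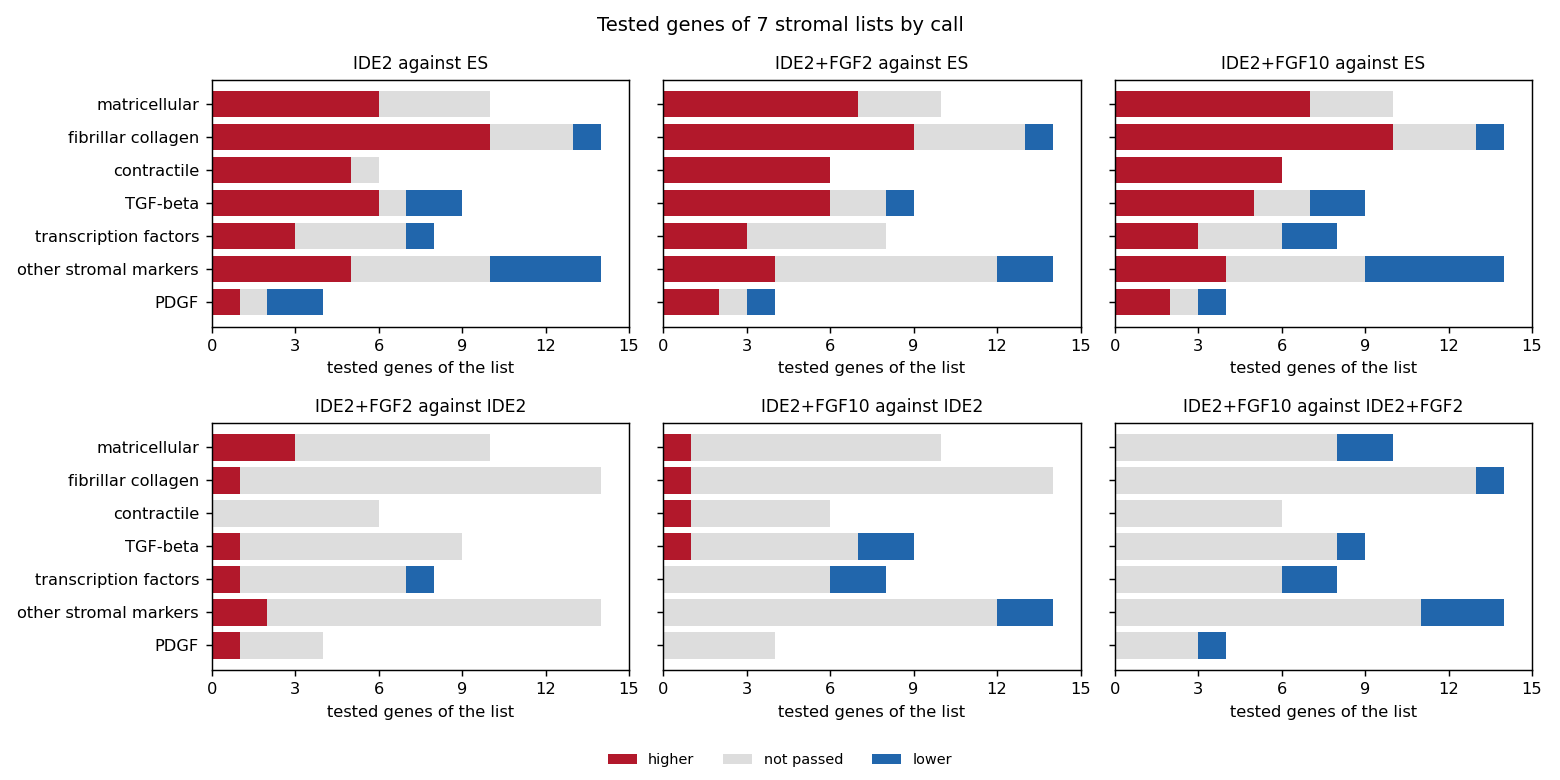
Number of tested genes (horizontal axis) of 7 lists that were higher, lower or did not pass in each of 6 comparisons. Against ES most tested matricellular, collagen and contractile genes are higher (6 of 10, 10 of 14 and 5 of 6 in IDE2, where 23.1% of all genes were higher), and among differentiated groups most bars are grey.

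Transcription factors of mesenchyme gave mixed calls. Of 8 tested, 3 rose and 1 fell in IDE2, 3 rose in IDE2+FGF2, and 3 rose and 2 fell in IDE2+FGF10 against ES. Of all genes 45.3%, 34.5% and 45.1% changed in these comparisons, 23.1%, 17.8% and 22.2% upward. Twist2 rose by at least 1.83-fold with IDE2 and by at least 3.51-fold with FGF2, and Twist1 rose 4.09-fold with FGF2. Zeb2, a repressor active in mesenchymal transition, rose at least 6.57-fold in IDE2. Its level after FGF2 was 4.88-fold lower than that, and after FGF10 2.84-fold lower. Meox1, a factor of somites, fell at least 1.96-fold in IDE2. Of 14 other stromal markers tested, 5 rose and 4 fell in IDE2, 4 and 2 after FGF2, and 4 and 5 after FGF10 against ES, to be read beside the same shares. Vim, the intermediate filament of mesenchyme, rose 4.42-fold, 4.56-fold and 3.60-fold. Among those that fell in IDE2, as Thy1 did, were the surface markers Eng (endoglin, CD105), at least 8.67-fold, and Anpep (CD13), at least 9.11-fold. After FGF2, Eng exceeded its IDE2 level at least 5.23-fold (adjusted p = 0.0019) and Mcam (CD146) 6.60-fold (0.0024). After FGF10 both stood below the FGF2 group, Eng at least 4.15-fold (0.0040) and Mcam 7.33-fold (0.0024). Rgs5, a pericyte gene, and Islr were detected on 0 arrays.

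Markers of other cells moved with some members. The 8 pluripotency genes were detected on every array, and their summed normalized signal ran from 133613 to 146284 on ES arrays, 22219 to 45710 on IDE2 arrays, 69901 to 71949 after FGF2 and 41783 to 41943 after FGF10, so that the IDE2 and IDE2+FGF10 arrays overlapped. The sum leans on its brightest genes, such as Dppa5a (15.94 in ES and 14.66 in IDE2). Utf1 had mean levels of 13.01, 7.45, 11.20 and 8.80 in the same 4 groups, and Pou5f1 (Oct4) was 5.09-fold higher in IDE2+FGF2 than with IDE2 kept. The genes did not share 1 order. In IDE2+FGF2 against IDE2, 4 of the 8 rose and 0 fell, whereas in IDE2+FGF10 against IDE2 Utf1 rose and Nanog and Zfp42 fell. Of all genes 3.7% rose and 3.8% fell in the first of these comparisons, and 4.13% and 9.76% in the second. Nanog had mean levels of 12.91, 11.45, 11.56 and 10.18 in the order of groups above, and Zfp42 11.64, 8.97, 8.90 and 7.71. Dppa5a, Nanog and Zfp42 were chosen for mention after their values were seen. The part of pluripotency genes in the Thy1 result was not tested. The T cell genes Cd3g, Cd8a and Ptprc were not detected on any array. Cd3e was detected on 5 arrays, with mean levels of 6.37 in ES, 5.01 in IDE2, 5.35 after FGF2 and 6.05 after FGF10. Cd4 was detected on 2 arrays. The sum of the list's 6 genes with a probe was highest in ES, at 12190 to 12235, and was 1070 to 2601 elsewhere. It came mostly from Laptm5 (13.55 in ES). The part of T cell genes in the Thy1 result was not tested. The endothelial sum of 8 genes was 2822 to 3029 in ES, 397 to 408 in IDE2, 1822 to 1915 after FGF2 and 481 to 513 after FGF10. Its defining genes Cdh5 and Tie1 were not detected on any array, yet Emcn was detected in IDE2+FGF2 alone (9.16). Of the 5 endothelial genes tested, 4 fell in IDE2 against ES, where 22.2% of all genes fell. In IDE2+FGF2 against IDE2 3 of them rose, where 3.7% of all genes rose. Emcn, among these 3, could be tested only through the group in which it was high. Muscle genes, 7 with a probe, summed to 495 to 532 in ES, 1077 to 1539 in IDE2, 2680 to 3354 after FGF2 and 1574 to 1581 after FGF10. In differentiated groups this sum came mostly from Actc1 (10.86 after FGF2) and Des (9.81), and Myh6 was highest in ES (7.09, against 5.24 in IDE2, 5.91 after FGF2 and 5.26 after FGF10). Of 5 muscle genes tested, 2 rose and 1 fell against ES in each differentiated group, and Myog was not detected on any array. Of all genes 23.1% rose and 22.2% fell in IDE2, 17.8% and 16.8% after FGF2, and 22.2% and 22.8% after FGF10. The part of endothelial and muscle genes in the Bgn and Thy1 results was not tested.

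Parietal and primitive endoderm genes, 13 in all, summed to 9792 to 9977 in ES, 29788 to 41901 in IDE2, 21577 to 34602 after FGF2 and 20933 to 21827 after FGF10. Their sum was higher on all differentiated arrays than on both ES arrays, as were the levels of Pdgfra and Sparc, which those cells also express. The sum leans on its brightest genes, such as Col4a1 (10.88 in ES and 13.56 in IDE2). Of 11 tested, 8 rose against ES in IDE2, 6 after FGF2 and 7 after FGF10, with 1 fall in each. Of all genes 23.1%, 17.8% and 22.2% rose and 22.2%, 16.8% and 22.8% fell in the same order. Gata4 and Plat were not detected on any array. Fst, a member of this list, had mean levels of 5.72 in ES, 9.21 in IDE2, 6.58 after FGF2 and 8.61 after FGF10. Sox7, also of this list, was highest in ES, with mean levels of 8.54, 6.93, 6.07 and 5.40 in that order. Gata6 had 8.03, 8.53, 8.46 and 7.33. The epithelial sum of 6 genes was 5112 to 5212 in ES, 31540 to 31809 in IDE2, 22244 to 31494 after FGF2 and 44912 to 47872 after FGF10. Of these 6, 5 rose against ES in IDE2, 4 after FGF2 and 6 after FGF10, with 0 falls, to be read beside the same shares. Neural genes, 8 with a probe, summed to 2331 to 3857 over all arrays, with Tubb3, Olig2 and Gfap not detected on any. The sum leans on Stmn2 (11.16 in ES and 10.70 in IDE2). Gap43 had mean levels of 6.33 in ES, 9.90 in IDE2, 9.77 after FGF2 and 9.96 after FGF10. Map2 had 5.46, 8.18, 7.17 and 6.65 in the same order. Cd4, Col4a1, Gata6 and Stmn2 were chosen for mention after their values were seen. Of 5 neural genes tested, 2 rose and 1 fell against ES in each differentiated group, beside the shares above. The part of these cells in the Pdgfra, Sparc and Nrep results was not tested.

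Over the 8 arrays, profiles centred on their own mean were compared by Euclidean distance, and the 3 closest named genes were taken for each tested member. The arrays come in 4 groups and differ in spread, so closeness describes these arrays and carries no test. Nearest to Thy1 were Def6, a Rac exchange factor (distance 0.83, r = 0.989 over 8 arrays), Itpr3, a calcium channel of the endoplasmic reticulum (0.86, r = 0.983), and Lrch4 (0.97, r = 0.979). Nearest to Pdgfra were Hmgcs1, an enzyme of sterol synthesis (0.39, r = 0.993), Tulp4 (0.46) and Tlcd5 (0.48). Bgn lay further from its nearest genes: Actc1, cardiac actin, lay at a distance of 2.10 (r = 0.954), Chst1 at 2.29 and the secreted matrix gene Spon2 at 2.29. Nrep was followed by Efna5, an ephrin (0.83, r = 0.997), the nuclear receptor gene Nr2f1 (0.92) and Pdzrn3 (1.06). Sparc was nearest to Kremen1 (0.50), Osbpl3 (0.51) and the integrin-linked kinase gene Ilk (0.52). For the weakly detected members, Dcn was nearest to Hsd17b7, Lyrm2 and Sfmbt2 (0.59 to 0.62) and Pdgfrb to Sgsm1, Prag1 and Notch3 (0.81 to 0.85). No member was among the 3 nearest genes of another.

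**Figure D5:**
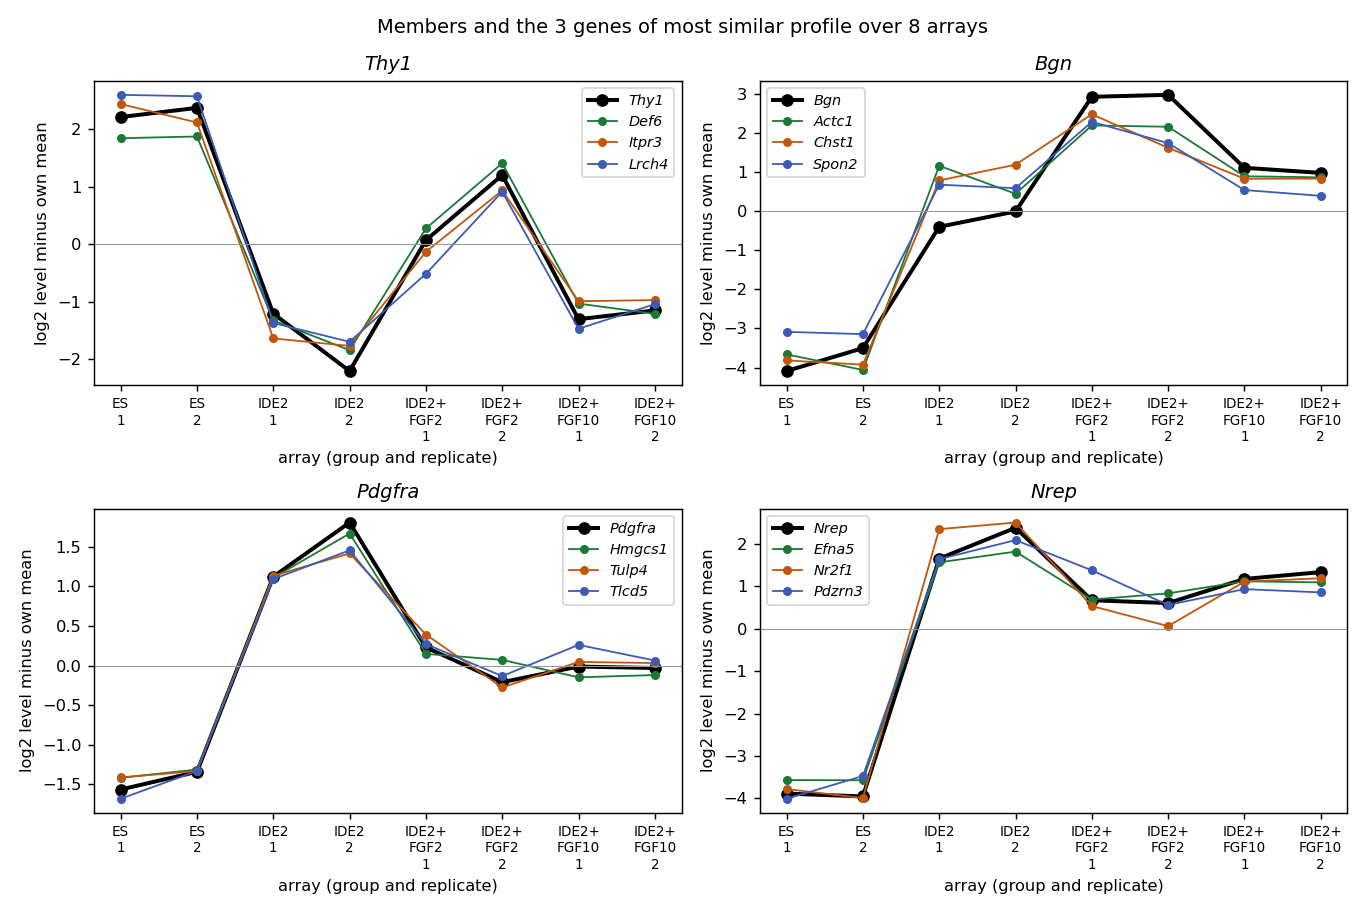
Log2 level minus the gene's own mean (vertical axis) on each of 8 arrays for 4 members (black) and the 3 genes nearest to each (colours). Thy1, Def6, Itpr3 and Lrch4 are highest on both ES arrays and higher on both IDE2+FGF2 arrays than on both IDE2 arrays. Bgn runs from its undetected ES arrays (4.85 and 5.44) to 11.92 on IDE2+FGF2 replicate 2.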

How the data were processed

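Levels of 9 marker genes were measured in total RNA of 4 groups of 2 samples, labelled with biotin and hybridised to Illumina BeadChips. Per the file headers, the authors' first deposited table gives, for each probe and array, a mean bead signal intensity on a linear scale, its standard error, the number of beads and a detection p-value, a deposited p-value for signal above background. BeadStudio is named in the submitters' processing notes without a version. From the values, these signals had not been normalized. A second deposited table of intensities ranks probes identically (rank correlation 1) and has medians of 144.53 to 144.89, and served as an alternative.

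Signals were corrected and quantile normalized with neqc of limma 3.58.1 (R 4.3.3, offset 16). Of 25697 probes, 23978 carried 1 gene symbol, and 14502 were kept. A gene is its kept probe with the highest mean. A limma model with a mean per group over 8 arrays (4 residual and 6.64 prior degrees of freedom, prior SD 0.324) gave 6 comparisons, with moderated t statistics adjusted by Benjamini-Hochberg over 9915 genes and calls at an adjusted p under 0.05. The fit was tested on simulated data. Lists were written from general knowledge, and genes of a pathway list could be named if they were, in a comparison, among the 2 top rises or 2 top falls that passed. From cell type lists up to 3 genes with the largest change against ES could be named, and any not detected. All members are named, and nearest genes are the 3 at the smallest distance. The members and lists were chosen with earlier results of these data known.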

Additional observations from a re-analysis of the deposited data

Results flagged for a closer look

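The changes of Bgn and of Thy1 from the same IDE2 arrays differed between IDE2+FGF2 and IDE2+FGF10 by the test of that difference. For Bgn, IDE2+FGF10 lay below IDE2+FGF2 by a log2 change of -1.91 (SE 0.30, limma adjusted p = 0.0058). Over IDE2, Bgn was 8.91-fold higher in IDE2+FGF2 and 2.38-fold higher in IDE2+FGF10. The Bgn difference kept its call under 17 of 20 alternatives. For Thy1 the difference was -1.87 (SE 0.42, limma adjusted p = 0.026), after a rise of 5.08-fold with FGF2 and no call with FGF10. The Thy1 difference kept its call under 13 of 20. Doses were 500 ng/ml for FGF2 and 25 ng/ml for FGF10, so factor and dose cannot be told apart. In each comparison with IDE2, the factor cannot be told apart from 5 days without IDE2.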

How the results depend on the processing

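The 20 alternatives gave 810 values for the changes of tested members. Of these, 719 kept direction and call, 73 lost a call, 3 gained one, 15 changed sign with no call in either fit, and 0 reversed a called change. The number of changed members with a replicate left out ranged from 4 to 6 for IDE2 against ES (6 as reported), 2 to 5 for IDE2+FGF2 against ES (5), 4 to 5 for IDE2+FGF10 against ES (5), 1 to 5 for IDE2+FGF2 against IDE2 (4), 0 to 3 for IDE2+FGF10 against IDE2 (3) and 0 to 2 for IDE2+FGF10 against IDE2+FGF2 (2). For IDE2+FGF10 against IDE2+FGF2 it was 1 with no background correction, with the second deposited table, with no detection filter and with only the arrays of the 2 groups compared. For IDE2+FGF2 against IDE2 it was 1 with array weights, 2 with only the 2 groups compared and 2 without IDE2 replicate 2 and IDE2+FGF2 replicate 2 together. For IDE2+FGF10 against IDE2 it was 1 with array weights and 0 with only the 2 groups compared. Fits with fewer arrays have fewer residual degrees of freedom, and a group left with 1 array is assumed to vary like the others. The cause of the other losses was not tested.

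Over all genes, counts of changed genes ranged from 2697 to 6444 (4496 as reported) for IDE2 against ES, 1695 to 5317 (3423) for IDE2+FGF2 against ES, 2762 to 6665 (4471) for IDE2+FGF10 against ES, 73 to 2369 (744) for IDE2+FGF2 against IDE2, 0 to 3222 (1377) for IDE2+FGF10 against IDE2, and 69 to 2364 (725) for IDE2+FGF10 against IDE2+FGF2. The 0 is limma's count with only the arrays of the 2 groups compared, where 2828 genes had an unadjusted p under 0.05. Median scaling moved the share of higher calls from 49.3 to 35.5% for IDE2+FGF10 against ES and 49.3 to 62.3% for IDE2+FGF2 against IDE2. The share went from 29.7 to 12.1% for IDE2+FGF10 against IDE2 and from 35.6 to 9.91% for IDE2+FGF10 against IDE2+FGF2. Under that scaling the median log2 change over all genes was -0.23, 0.09, -0.12 and -0.27 in that order. As reported it was -0.01, 0.02, 0.06 and 0.00. Relative to the median of -0.12, the Bgn change of 0.87 for IDE2+FGF10 against IDE2 under that scaling keeps its direction. No called member changed direction. With no detection filter Lum, undetected in ES and detected on 1 array of IDE2, passed in IDE2 against ES (log2 change 0.95, limma adjusted p = 0.015). It passed in no other comparison, and Postn in none.

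Same-numbered replicates did not deviate together (correlation of deviations -0.067 to 0.012), so the numbers are not taken as pairs. With a replicate block the counts of changed members were 6, 5, 5, 4, 3 and 2 in the order above, as without it, and no member's call changed. Over all genes they were 4407, 3360, 4367, 638, 1324 and 665. The strict detection filter left no value for Dcn or Pdgfrb, and leaving out either IDE2 array left none for Dcn, which then was detected on 1 array. A block for the BeadChip was not run because the headers give no chip. Signal over background limits Pdgfrb, Dcn, Lum and Postn.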

Other observations

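Replicate arrays can be set against the error between beads of a probe. For the probe of Sparc used here, the IDE2+FGF2 replicates were 1.21 apart on the log2 scale, 14.7 times the bead error of that gap, against 1.31 times for the other Sparc probe. Thy1 was 1.13 apart in the same group (8.68 times) and Pdgfrb 1.76 apart (4.51 times), with replicate 2 higher for each of these. In IDE2, Nrep replicates were 0.73 apart (8.79 times), those of the other Sparc probe 0.70 (7.90 times), Pdgfra replicates 0.68 (6.89 times) and Thy1 replicates 1.00 (3.19 times). In IDE2+FGF10 the gap of Nrep was 2.13 times the bead error, and those of Thy1, Pdgfra and the used Sparc probe were 0.478, 0.0858 and 0.207 times.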
